A study of Homo sapiens with 8 samples.

Results

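Nodal signalling was followed through 10 genes: the ligands NODAL, GDF3 and TGFB1, the secreted antagonists LEFTY1, LEFTY2 and CER1, the receptor ACVR2A, and the intracellular mediators SMAD2, SMAD3 and SMAD7. The genes were listed by name as members of the pathway, with earlier results of these data known, and each was measured by the array probe sets that name it alone. Of the 10, 9 had such a probe set, 21 sets in all, out of 19775 genes that the array measures in this way. LEFTY2 had none and was measured only by a set that it shares with LEFTY1. Where a gene had several sets, its brightest one on average gives the main value, and the others are compared with it.

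Total RNA came from human embryonic stem cells that the labels name as H9, an established line, grown in mTeSR, a medium for cultures without feeder cells. There were 4 groups of 2 arrays: undifferentiated cells with 0 mM ethanol, undifferentiated cells with 20 mM ethanol for 24 h, embryoid bodies with 0 mM ethanol and embryoid bodies with 20 mM ethanol for 24 h. Embryoid bodies are aggregates in which pluripotent cells differentiate, and all 4 groups carry the same line name and no genetic change. The labels call the 2 arrays of a group A and B without saying whether they come from separate cultures, so the p-values measure the spread between these samples, which may be technical.

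Nodal is a secreted ligand of the TGF-beta family. It binds activin receptors together with a co-receptor, and the receptors phosphorylate SMAD2 and SMAD3, which enter the nucleus with SMAD4 and act with DNA-binding partners such as FOXH1. LEFTY proteins block the ligand and are themselves induced by it, and SMAD7 is an induced inhibitor of the receptors, so the pathway holds its own negative feedback. In human embryonic stem cells, activin and Nodal signals help to maintain pluripotency, and at higher levels the same signals drive mesendoderm formation.

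The array medians lay between 69.2 and 102 signal units, and every array had been scaled to the same trimmed mean. In a check against the named line, 4 of the 8 arrays, all of 1 of the 2 stages, did not match it. A difference between the stages and a difference between lines can therefore not be told apart in any stage comparison here, and the comparison cannot be made without those arrays. Of 8 pluripotency markers with a probe set, 6 were lower in all embryoid body arrays, and their summed signal was 117258 to 126333 in undifferentiated cells and 79467 to 93768 in embryoid bodies. The part of these marker changes in the stage differences was not tested. All 6 endoderm markers and all 7 mesoderm and mesenchyme markers were higher in all embryoid body arrays. The same held for 4 of 5 neuroectoderm markers, and of 4 trophoblast markers 2 were higher and 1 was lower in all embryoid body arrays. Of 6 endothelial and blood markers, KDR, PF4 and PECAM1 had group means above the array medians, KDR at 1445 to 2291 signal units, while CDH5 and PTPRC were at most 30.9 and below every median. The summed signal of these 6 was 2389 to 3022 in undifferentiated cells and 1809 to 2291 in embryoid bodies. These arrays measure mixed cells, so fewer cells of a type and less RNA per cell cannot be told apart.

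The sequences upstream of 4 members are shown because they hold a match to a SMAD or FOXH1 motif; they were chosen after the search of the 8 member windows described below them. They are RefSeq windows of GRCh38.p14, 250 bases that end just before the most upstream annotated start site, written 5′ to 3′ on the strand of the gene. Capitals mark CAGAC, a short box that SMAD proteins bind, and AATNCACA, a FOXH1-type motif.
NODAL, chr10:70441682-70441931, minus strand: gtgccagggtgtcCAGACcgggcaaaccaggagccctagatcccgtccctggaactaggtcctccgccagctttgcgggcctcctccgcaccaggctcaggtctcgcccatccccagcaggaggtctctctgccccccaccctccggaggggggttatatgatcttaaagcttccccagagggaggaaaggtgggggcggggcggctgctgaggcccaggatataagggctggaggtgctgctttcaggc
GDF3, chr12:7695776-7696025, minus strand: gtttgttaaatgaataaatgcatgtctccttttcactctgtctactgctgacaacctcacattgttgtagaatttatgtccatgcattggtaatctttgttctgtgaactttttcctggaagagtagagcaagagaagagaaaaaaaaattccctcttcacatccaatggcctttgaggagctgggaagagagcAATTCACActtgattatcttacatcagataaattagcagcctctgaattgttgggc
CER1, chr9:14722734-14722983, minus strand: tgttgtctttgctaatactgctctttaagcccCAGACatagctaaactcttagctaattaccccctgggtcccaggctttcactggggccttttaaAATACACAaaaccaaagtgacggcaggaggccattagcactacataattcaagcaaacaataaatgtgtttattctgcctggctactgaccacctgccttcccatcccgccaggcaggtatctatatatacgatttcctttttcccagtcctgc
SMAD7, chr18:48950966-48951215, minus strand: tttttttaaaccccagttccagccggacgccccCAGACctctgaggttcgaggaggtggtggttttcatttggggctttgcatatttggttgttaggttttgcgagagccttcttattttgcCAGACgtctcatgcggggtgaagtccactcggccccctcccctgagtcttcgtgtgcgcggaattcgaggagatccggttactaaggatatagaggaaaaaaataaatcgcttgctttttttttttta

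Both strands were searched in the window of the most upstream start site of 8 members, all but LEFTY1 and LEFTY2. SMAD2, SMAD3 and SMAD7 have 2, 5 and 3 windows, and their other windows were not searched as member windows. The shares of all windows count every annotated window of a gene. CAGAC was found in 3 of the 8 (NODAL, CER1 and SMAD7), and in 38.0% of all 35116 such windows of 250 bases, so its presence is common. AATNCACA was found in CER1, where the match is AATACACA, and in GDF3, where it is AATTCACA, and in 2.89% of all windows. The palindromic SMAD element GTCTAGAC was in none of the 8 member windows searched and in 0.182% of all windows. No match overlapped another. CER1 was the member whose window held both motifs, with CAGAC 218 bases and AATACACA 154 bases upstream of the start. These matches describe letters in a window and do not show binding.

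In embryoid bodies 7 of the 9 measured genes had higher signal than in undifferentiated cells on every array, and LEFTY1 and SMAD2 had lower signal on every array. Without ethanol, NODAL, TGFB1, CER1, ACVR2A, SMAD3 and SMAD7 rose and LEFTY1 fell. With 20 mM ethanol in both stages, the same genes changed in the same direction. GDF3 and SMAD2 also passed there, GDF3 higher and SMAD2 lower. The stage difference of GDF3 and of SMAD2 did not pass as different between the doses (limma adjusted p = 0.558 and 0.381). The folds were about 2 or less for most members, and the largest were 2.99-fold higher for TGFB1 at 20 mM and 2.79-fold lower for LEFTY1 at 0 mM.

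These calls come from limma with Benjamini-Hochberg adjustment over 14072 genes, where an adjusted p under 0.05 counts as a call. At 0 mM, 6 members were called higher and 1 lower, against 28% and 24.7% of all genes tested, or 52.8% in either direction. At 20 mM, 7 were called higher and 2 lower, against 29.2% and 27.1%, or 56.3% in either direction. Of all genes tested, 30.4% had all 4 embryoid body arrays above all 4 undifferentiated arrays and 27.8% had them all below. Most genes thus passed in each stage comparison, and a call by itself does not set a member apart. The median log2 change of the 9 members was 0.90 at 0 mM and 0.88 at 20 mM, and that of all genes 0.02 in both. Median centring of the arrays moved the median of all genes by -0.28 at 0 mM and -0.42 at 20 mM. It left 30.1% and 25% of the stage calls in the higher direction, in place of 53.2% and 51.9%.

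**Figure D1:**
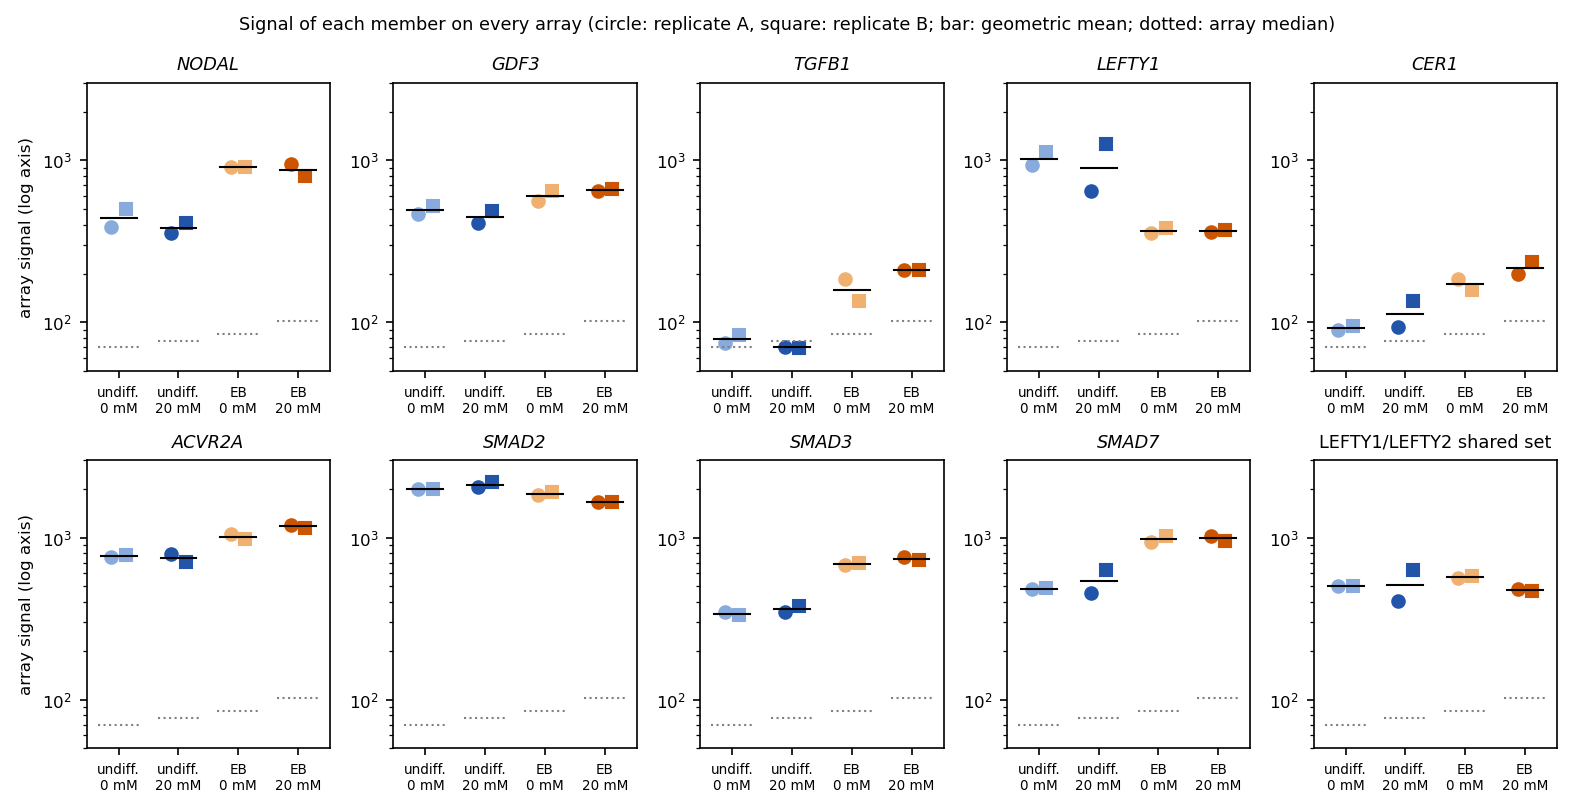
Signal (log axis) of the main probe set of each of 9 members, and of the set shared by LEFTY1 and LEFTY2, on all 8 arrays; circles are replicate A, squares replicate B, bars geometric means of 2 arrays and dotted lines the mean array median of the group. NODAL, TGFB1, SMAD3 and SMAD7 sit higher in both embryoid body groups, LEFTY1 sits lower, and the shared set shows no separation of the stages.

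Among the ligands, NODAL read 389 and 501 signal units in undifferentiated cells at 0 mM, 355 and 407 at 20 mM, 912 and 912 in embryoid bodies at 0 mM, and 955 and 794 at 20 mM. The 4 embryoid body arrays lay above the 4 undifferentiated arrays, and the doses overlapped within each stage. NODAL was 2.07-fold higher in embryoid bodies at 0 mM (log2 change 1.05 ± 0.16 SE, n = 2 arrays per group, limma adjusted p = 0.00297) and 2.29-fold higher at 20 mM (adjusted p = 0.00156). Both calls held under all 20 alternatives tried, and the 20 mM value was 0.63 with the mean of its sets and 0.78 under median centring.

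GDF3, a ligand related to Nodal that is abundant in pluripotent cells, read 468 and 525 signal units in undifferentiated cells at 0 mM, 407 and 489.8 at 20 mM, 562 and 646 in embryoid bodies at 0 mM, and 646 and 661 at 20 mM. The stages did not overlap, yet the gap at 0 mM was small beside the spread of the replicates. The log2 change in embryoid bodies was 0.28 ± 0.13 at 0 mM (limma adjusted p = 0.107) and 0.55 ± 0.13 at 20 mM (adjusted p = 0.0123). GDF3 was called at 0 mM with a replicate block (adjusted p = 0.0437), and its 0 mM value was 0.11 under quantile normalisation and 0 under median centring. The 20 mM call ended under median centring (log2 change 0.13, adjusted p = 0.449) and without embryoid body replicate A (adjusted p = 0.05001) or B (adjusted p = 0.0597) at 20 mM.

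TGFB1, the founding ligand of the TGF-beta family, was near the array median in undifferentiated cells. It read 74.1 and 83.2 signal units there at 0 mM, 70.8 and 69.2 at 20 mM, 186 and 135 in embryoid bodies at 0 mM, and 209 and 209 at 20 mM. The 2 undifferentiated arrays with ethanol lay below their own array medians, so 6 of the 8 arrays were above the median. TGFB1 rose 2.02-fold at 0 mM (log2 change 1.01 ± 0.16, n = 2 arrays per group, limma adjusted p = 0.00334) and 2.99-fold at 20 mM (log2 change 1.58 ± 0.16, adjusted p = 0.000629). The mean of both of its probe sets gave 0.44 at 0 mM (adjusted p = 0.369), and the second set never rose above the array median. TGFB1 was not tested with the filter at the 75th percentile, without sets ending in _x_at or _s_at, or with its set of highest SD.

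Among the antagonists, LEFTY1 read 933 and 1122 signal units in undifferentiated cells at 0 mM, 646 and 1259 at 20 mM, 355 and 380.2 in embryoid bodies at 0 mM, and 363 and 372 at 20 mM. The embryoid body arrays lay within a narrow range, and the undifferentiated arrays with ethanol lay farthest apart. LEFTY1 fell, to 2.79-fold lower signal at 0 mM (log2 change -1.48 ± 0.30, n = 2 arrays per group, limma adjusted p = 0.00894) and 2.45-fold lower at 20 mM (log2 change -1.30 ± 0.30, adjusted p = 0.0131). The 0 mM call held under all 20 alternatives. The 20 mM value was -0.81 without undifferentiated replicate B and -1.78 without replicate A at 20 mM. Its call ended with only the 4 arrays compared in the fit (adjusted p = 0.0596) and without embryoid body replicate A (adjusted p = 0.05897) or B (adjusted p = 0.0566) at 20 mM.

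LEFTY1 and LEFTY2 encode closely similar proteins. The set that the annotation gives to both was designed on an accession that RefSeq assigns to LEFTY2. It read 501 and 501 signal units in undifferentiated cells at 0 mM, 407 and 631 at 20 mM, 562 and 575 in embryoid bodies at 0 mM, and 479 and 468 at 20 mM. The stages overlapped on this set, unlike on the set of LEFTY1. It cannot be assigned to either gene, so it was not tested and gives no level of LEFTY2.

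CER1 encodes Cerberus, a secreted binder of Nodal and BMP ligands, and was close to the array median in undifferentiated cells. It read 89.1 and 95.5 signal units there at 0 mM, 93.3 and 135 at 20 mM, 186 and 158 in embryoid bodies at 0 mM, and 199.5 and 234 at 20 mM. The stages did not overlap, and undifferentiated replicate B at 20 mM was nearest to the embryoid bodies. CER1 rose 1.86-fold at 0 mM (log2 change 0.90 ± 0.20, n = 2 arrays per group, limma adjusted p = 0.0114) and 1.93-fold at 20 mM (adjusted p = 0.00845). At 0 mM the call ended under quantile normalisation (adjusted p = 0.0704), median centring (adjusted p = 0.0506), without undifferentiated replicate A (adjusted p = 0.0577) and without embryoid body replicate A (adjusted p = 0.0629). At 20 mM it ended under quantile normalisation (adjusted p = 0.0542), median centring (adjusted p = 0.0732) and without embryoid body replicate B (adjusted p = 0.0511). With the filter at the 75th percentile CER1 was not tested.

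ACVR2A, a type II receptor for activin and Nodal, read 759 and 776 signal units in undifferentiated cells at 0 mM, 794 and 708 at 20 mM, 1047 and 977 in embryoid bodies at 0 mM, and 1202 and 1148 at 20 mM. The order of the group means was the 20 mM embryoid bodies, then the 0 mM embryoid bodies, then both undifferentiated groups, which overlapped. ACVR2A rose 1.32-fold at 0 mM (log2 change 0.40 ± 0.09, n = 2 arrays per group, limma adjusted p = 0.0111) and 1.57-fold at 20 mM (log2 change 0.65 ± 0.09, adjusted p = 0.00163). Its second probe set gave 0.73 ± 0.14 and 0.91 ± 0.14, both called. Median centring gave 0.23 on the main set at 20 mM. The 0 mM call on that set ended under median centring (log2 change 0.12, adjusted p = 0.249), without undifferentiated replicate A (adjusted p = 0.0517) and without embryoid body replicate A (adjusted p = 0.0655).

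SMAD2 and SMAD3 are the mediators that the activated receptors phosphorylate. SMAD3 rose at both doses, and SMAD2 fell at 20 mM and did not pass at 0 mM. SMAD3 read 347 and 331 signal units in undifferentiated cells at 0 mM, 347 and 380.2 at 20 mM, 676 and 692 in embryoid bodies at 0 mM, and 759 and 724 at 20 mM. The stages were widely separated, and replicates differed by at most 1.10-fold. SMAD3 rose 2.02-fold at 0 mM (log2 change 1.01 ± 0.08, n = 2 arrays per group, limma adjusted p = 0.000328) and 2.04-fold at 20 mM (log2 change 1.03 ± 0.08, adjusted p = 0.000266). With the probe set of highest SD in its place, a dim one, the values were 1.28 (adjusted p = 0.0535) and 1.89, and median centring gave 0.61 at 20 mM.

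SMAD2 read 1995 and 1995 signal units in undifferentiated cells at 0 mM, 2042 and 2188 at 20 mM, 1819.7 and 1905 in embryoid bodies at 0 mM, and 1659.6 and 1659.6 at 20 mM. The stages did not overlap, but the differences were small. The log2 change was -0.10 ± 0.07 at 0 mM (limma adjusted p = 0.278) and -0.35 ± 0.07 at 20 mM (n = 2 arrays per group, adjusted p = 0.00776). SMAD2 was called lower at 0 mM by the mean of its sets (log2 change -0.30, adjusted p = 0.02) and after median centring (log2 change -0.38, adjusted p = 0.0137), which gave -0.76 at 20 mM.

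SMAD7, which blocks receptor signalling and is induced by it, read 479 and 489.8 signal units in undifferentiated cells at 0 mM, 457 and 631 at 20 mM, 933 and 1023 in embryoid bodies at 0 mM, and 1023 and 955 at 20 mM. The stages did not overlap, and the embryoid body groups overlapped each other. SMAD7 rose 2.02-fold at 0 mM (log2 change 1.01 ± 0.16, n = 2 arrays per group, limma adjusted p = 0.00334) and 1.84-fold at 20 mM (log2 change 0.88 ± 0.16, adjusted p = 0.00495). Median centring ended the 20 mM call (log2 change 0.47, adjusted p = 0.0657), and the 0 mM call held under all 20 alternatives. SMAD7 and LEFTY1, both named as feedback inhibitors of the pathway, thus changed in opposite directions between the stages.

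**Figure D2:**
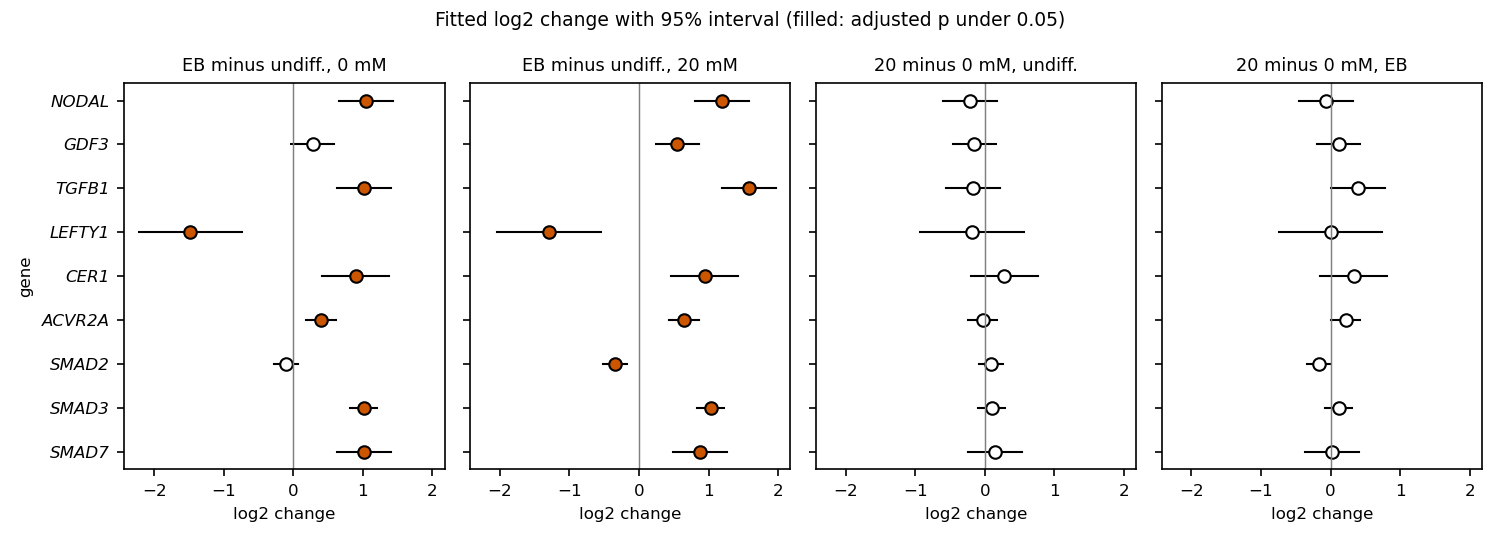
Fitted log2 change of 9 members with its 95% interval in 4 comparisons, each between groups of 2 arrays; filled points have an adjusted p under 0.05. The stage comparisons hold 7 and 9 filled points, LEFTY1 is at -1.48 and -1.30, and neither ethanol comparison holds a filled point.

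The other probe sets of the members mostly repeated the direction of the main set where they were bright enough. Of the 21 sets, 17 had at least 2 arrays above the array median. In a fit of all single-gene probe sets, 11 of these 17 were called between the stages at 0 mM and 16 at 20 mM, against 46.2% and 50.5% of all sets tested. All 6 sets of SMAD2 had negative log2 changes at both doses. One dim set was above the median on undifferentiated arrays alone, so the filter favoured its fall. That set counts among the 17 tested and among the 16 called at 20 mM, but not among the 11 called at 0 mM. Of the other 5, 3 had no overlap between the stages, 2 were called lower at 0 mM and 4 at 20 mM. The 4 sets of SMAD3 had positive log2 changes at both doses, but only 2 were bright enough to be tested. These 2 were called higher at 20 mM (limma adjusted p = 0.0135 for the dimmer one). The dimmer one was not called at 0 mM (limma adjusted p = 0.0529), and the stages overlapped on it.

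NODAL is measured by 3 sets that differ in brightness. The second set read 100 and 70.8 signal units in undifferentiated cells at 0 mM, 123 and 132 at 20 mM, 162 and 191 in embryoid bodies at 0 mM, and 214 and 199.5 at 20 mM. It also rose between the stages, by a log2 value of 1.06 ± 0.18 at 0 mM and 0.70 ± 0.18 at 20 mM (limma adjusted p = 0.00558 and 0.0218). The third set, the one whose accession RefSeq assigns to NODAL, read 20.9 to 33.1 in undifferentiated cells and 22.9 to 47.9 in embryoid bodies, below the median of every array. The stages overlapped on it, and it was too dim to be tested.

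**Figure D3:**
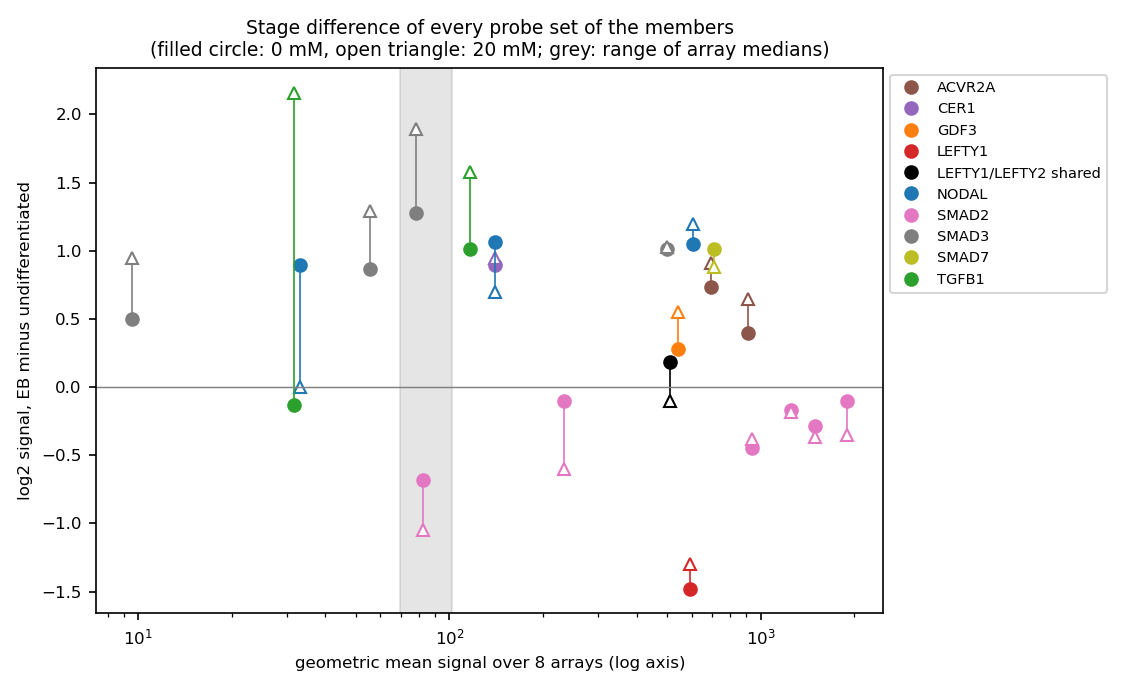
Log2 difference between embryoid bodies and undifferentiated cells for every probe set of the members against its geometric mean signal over 8 arrays (log axis); filled circles are 0 mM, open triangles 20 mM, lines join the doses of 1 set, and the grey band is the range of array medians, 69.2 to 102. The sets of SMAD2 lie below 0 at both doses and those of SMAD3 above it.

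On the main probe sets, ethanol changed none of the 9 members in undifferentiated cells by limma at an adjusted p under 0.05, and none had an unadjusted p under 0.05. Over all genes 0.00711% were called, and 986 of 14072 had an unadjusted p under 0.05. The log2 changes ran from -0.22 ± 0.16 for NODAL (95% interval -0.60 to 0.17) to 0.28 ± 0.20 for CER1 (95% interval -0.20 to 0.76), with 4 positive and 5 negative. LEFTY1 was at -0.18 ± 0.30 (95% interval -0.93 to 0.56), SMAD7 at 0.15 ± 0.16 and GDF3 at -0.15 ± 0.13. The doses overlapped for 7 of the 9 genes, while both SMAD2 arrays with ethanol lay above, and both TGFB1 arrays below, those without. For comparison, 15.4% of all genes had both ethanol arrays above and 12.1% both below. Other sets gave other values: the second NODAL set was at 0.60 ± 0.18 (limma unadjusted p = 0.0169, adjusted p = 0.607), opposite in sign to the main set, and the dim SMAD3 set at -1.26 ± 0.43 (unadjusted p = 0.0262, adjusted p = 0.65).

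In embryoid bodies no member was called for ethanol by limma, and 0.0711% of all genes were called. An unadjusted p under 0.05 was reached by 2 of the 9 members and by 3137 of all 14072 genes. TGFB1 was at 0.40 ± 0.16 (95% interval 0.01 to 0.79, adjusted p = 0.216), ACVR2A at 0.22 ± 0.09 (95% interval 0.00 to 0.43, adjusted p = 0.218) and SMAD2 at -0.17 ± 0.07 (95% interval -0.34 to 0.01, adjusted p = 0.238). NODAL was at -0.07 ± 0.16 and SMAD7 at 0.02 ± 0.16, and the group means of LEFTY1 were equal (95% interval of the log2 difference -0.74 to 0.74). Both ethanol arrays lay above both others for TGFB1, ACVR2A, CER1 and SMAD3 and below them for SMAD2, 4 and 1 of 9 genes, and the same held for 29.4% and 28.1% of all genes. With 9 genes and 2 arrays per group, these counts are given as a description. After median centring SMAD2 was called lower in embryoid bodies with ethanol (log2 change -0.43, adjusted p = 0.0252), and ACVR2A was at -0.05.

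The ethanol effect did not pass as different between the stages for any member. Limma called 0 of the 9 and 0% of all genes, and 2 members had an unadjusted p under 0.05, as did 1828 of all 14072 genes. The difference, embryoid bodies minus undifferentiated cells, was 0.56 ± 0.22 for TGFB1 (adjusted p = 0.381) and -0.25 ± 0.10 for SMAD2 (adjusted p = 0.381). It was 0.15 ± 0.22 for NODAL and 0.18 ± 0.43 for LEFTY1, whose 95% interval ran from -0.87 to 1.23.

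The undifferentiated arrays with ethanol differed from each other for several members. LEFTY1 was 1.95-fold higher in replicate B than in replicate A, the set shared by LEFTY1 and LEFTY2 1.55-fold, CER1 1.45-fold, SMAD7 1.38-fold, GDF3 1.20-fold and NODAL 1.15-fold. Of all genes, 1.51% had a larger rise from A to B in this pair than LEFTY1, 4.97% than CER1 and 6.49% than SMAD7. These 3 genes were chosen after their values were seen. For LEFTY1, replicate A at 646 lay below both arrays without ethanol, and replicate B at 1259 lay above them. In the pair without ethanol LEFTY1 differed 1.20-fold, CER1 1.07-fold and SMAD7 1.02-fold. SMAD2 and SMAD3 differed 1.07-fold and 1.10-fold in the ethanol pair.

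Other values moved with this pair. The activin-binding protein FST read 2188 in replicate A and 1096 in replicate B, opposite to LEFTY1, and the mesendoderm regulator EOMES read 214 and 316. FST and EOMES were not picked by a fixed rule. Among other genes of the pathway, DACT1 read 513 and 1047 and FURIN 174 and 81.3, while SMAD4 read 2239 on both arrays. The summed signal of 7 mesoderm and mesenchyme markers was 6153 in replicate A and 4714 in B. That of 5 neuroectoderm markers was 9659 and 6590, and that of 8 pluripotency markers 126333 and 120307. The sums rest largely on single genes, COL1A1 with 5495 and 3981 for mesoderm and OTX2 with 5888 and 3162 for neuroectoderm. COL3A1 (100 and 195), HAND1, LUM and POSTN went the other way, while DCN and PDGFRA were lower in B, as were the other neuroectoderm markers. The part of these values in the difference between the replicates was not tested. Without replicate A the ethanol value of LEFTY1 in undifferentiated cells was 0.30, and without replicate B it was -0.66.

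**Figure D4:**
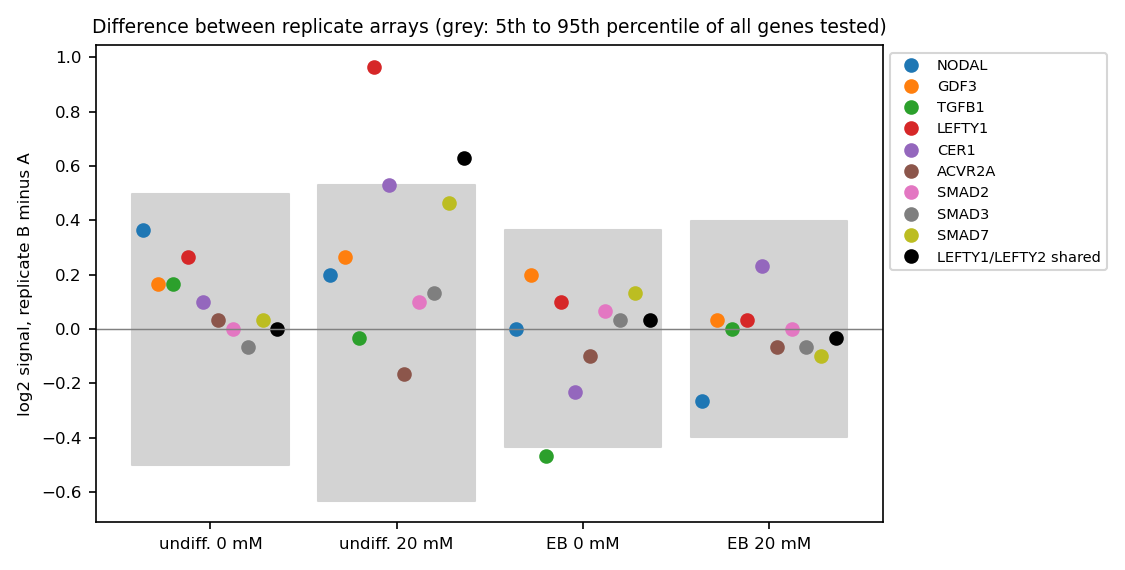
Log2 signal of replicate B minus replicate A in each of the 4 groups for 9 members and the set shared by LEFTY1 and LEFTY2; grey boxes span the 5th to the 95th percentile of 14072 genes. LEFTY1 and the shared set lie above the box in undifferentiated cells with 20 mM ethanol, and TGFB1 lies below it in embryoid bodies without ethanol.

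Around the members, 42 further genes of the Nodal, activin and TGF-beta pathway were listed, of which 38 could be measured by an own probe set and 34 passed the filter on low signal. Between the stages 14 rose and 5 fell at 0 mM, and 14 rose and 6 fell at 20 mM, with median log2 changes of 0.17 and 0.22. INHBA and INHBB were above the array median on embryoid body arrays alone, so the filter favoured their rise; without them 12 of 32 rose and 5 fell at 0 mM, and 13 rose and 6 fell at 20 mM. Among all genes tested 28% rose and 24.7% fell at 0 mM, and 29.2% and 27.1% at 20 mM, and the median change was 0.02 at both doses. The list was described by these counts and not tested as a set. By role and without these 2, 3 of 4 ligands rose and 1 fell at both doses. Among 5 binders and antagonists 3 rose at both (FST, BAMBI and DACT1), and 3 of 6 receptors rose at 0 mM and 4 at 20 mM. In a group of 9 repressors and ubiquitin ligases that includes PMEPA1, 0 rose, and 3 fell at 0 mM and 4 at 20 mM. That group leaves out DACT1, counted with the antagonists, and the member SMAD7, an inhibitor of the receptors. Both of these rose at both doses.

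The activin subunit gene INHBA read 38.9 and 34.7 signal units in undifferentiated cells at 0 mM, below the array medians, and 214 and 191 in embryoid bodies; no fold is given over that low level. BAMBI, a decoy receptor, rose 5.01-fold at 0 mM (log2 change 2.33 ± 0.07, adjusted p = 2.62e-05) and 5.75-fold at 20 mM (adjusted p = 1.81e-05). LTBP1, which holds latent TGF-beta in the matrix, rose 2.57-fold and 2.60-fold, and the co-receptor TGFBR3 2.48-fold and 3.24-fold. TGFB2 rose 5.82-fold at 20 mM (adjusted p = 0.000128). BAMBI, LTBP1, TGFBR3 and TGFB2 read higher in every embryoid body array than in any undifferentiated array.

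Genes that fell were the activin subunit INHBE, the SMAD partner FOXH1 and the repressors TGIF1, TGIF2 and SKIL at both doses, and PMEPA1, a membrane protein that sequesters receptor SMADs, was called lower at 20 mM (limma adjusted p = 0.0499) and not at 0 mM (adjusted p = 0.544); SKIL and PMEPA1 are named to complete the count. TGIF1 fell to 1.64-fold lower signal at 0 mM (limma adjusted p = 0.00177) and 1.95-fold lower at 20 mM (adjusted p = 0.000561). INHBE was 2.04-fold lower at 0 mM (adjusted p = 0.00161), and FOXH1 read 2512 and 2455 in undifferentiated cells without ethanol and 1622 and 1778 in embryoid bodies, 1.46-fold lower (adjusted p = 0.0102). FOXH1, the DNA-binding partner of SMAD2 and SMAD3, thus fell while SMAD3 rose. SMAD4 did not pass, at -0.05 and 0.13, and ACVR2B and SKI did not either at either dose.

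**Figure D5:**
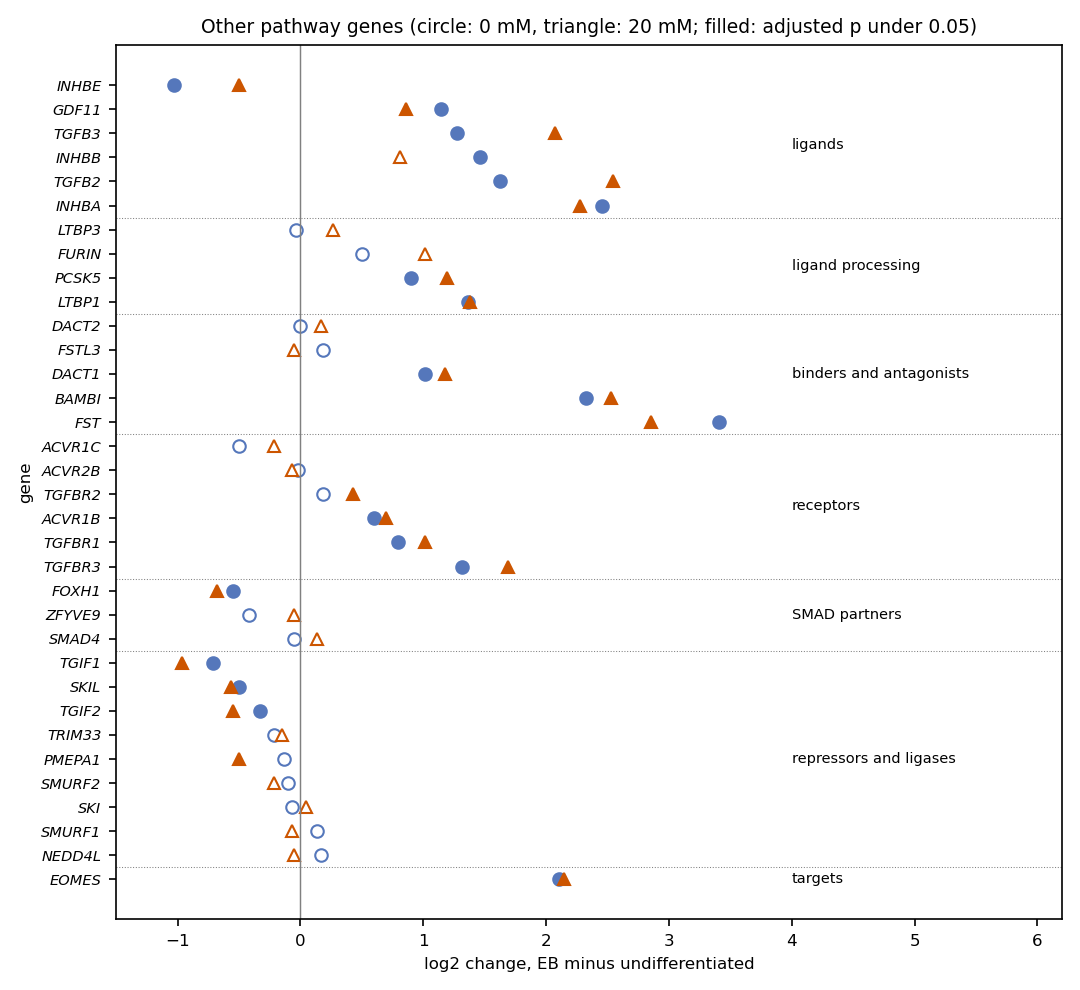
Log2 change between embryoid bodies and undifferentiated cells of the 34 tested genes of the wider pathway, grouped by role; circles are 0 mM, triangles 20 mM, and filled symbols have an adjusted p under 0.05. Filled symbols lie to the right for FST, BAMBI, TGFB2 and EOMES and to the left for TGIF1, TGIF2, SKIL, FOXH1 and INHBE.

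With ethanol none of the 34 wider pathway genes was called by limma in either stage. The unadjusted p was under 0.05 for 1 of them in undifferentiated cells and 7 in embryoid bodies. Among all 14072 genes it was under 0.05 for 986 in undifferentiated cells and 3137 in embryoid bodies. Within the 34, the smallest p-values in embryoid bodies belonged to TGFBR3 (log2 change 0.40 ± 0.07, limma adjusted p = 0.0794) and TGFB2 (0.71 ± 0.15, adjusted p = 0.0971). TGFB2 read 355 and 398 signal units without ethanol and 603 and 631 with it. These 2 genes were chosen for mention after their values were seen.

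Across the 8 arrays, the log2 signals most like that of NODAL were those of CRYZL1, ARHGAP24 and NKTR, with Pearson coefficients of 0.997, 0.994 and 0.994, and those most like LEFTY1 were PARPBP, B4GALT6 and SGO2, with 0.996, 0.995 and 0.994. The arrays fall into 2 stages, and any gene that differs between the stages takes part in such likeness. Of 14058 genes compared, 1089 had a coefficient over 0.95 with NODAL and 343 with LEFTY1.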

How the data were processed

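The deposited values are log10 array signals with 2 decimals, so 1 step is 2.33% in signal. Per the labels, the authors used RMA, with no version given, but the values have the form of globally scaled signals: their mean after trimming 2% at each end was 500 on every array. They were multiplied by 3.32 to give log2 signals and not normalised again. Precision is limited by having 2 arrays per group. GEO's platform annotation gives 41091 sets a single gene, and 41037 of them were matched to RefSeq by gene number. The filter kept genes above the median signal on 2 or more arrays, 14072 of 19775. Limma 3.58.1 in R 4.3.3 fitted 1 mean per group to all 8 arrays, without a replicate block, leaving 4 residual degrees of freedom besides 1.81 from the prior. On simulated data for the stage comparison at 0 mM, where 200 of 14072 genes were shifted by 1 log2 unit, 100% were recovered and 3.73% of calls were false. That setting differs from the data, where 52.8% of genes were called. These shares therefore do not measure what the real comparison misses or calls falsely. The plan named log2 signals; the members and lists were chosen with earlier results of these data known. Genes named by rule are all members and the 3 genes most like NODAL and LEFTY1. From the pathway list, the rule gave up to 4 called genes per direction and comparison with the smallest p. Pathway genes named outside this rule are FST, EOMES, DACT1, FURIN, INHBB, SKIL, PMEPA1, SMAD4, ACVR2B and SKI. Motifs were searched with Python 3.11.15. Alternatives were other filters, probe set choices, normalisations, a pseudocount of 32, a trended and robust variance, a replicate block, only the arrays compared, and each array left out.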

Additional observations from a re-analysis of the deposited data

Results flagged for a closer look

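The ethanol response of TGFB1 ran in opposite directions in the 2 stages on every array, lower in both undifferentiated arrays and higher in both embryoid body arrays. The difference between the stages was 0.56 on the log2 scale (limma unadjusted p = 0.0456, adjusted p = 0.381, n = 2 arrays per group), and 2 of the undifferentiated arrays lay below their array median. SMAD2 ran the other way, higher in both undifferentiated arrays and lower in both embryoid body arrays, with a difference of -0.25 (limma unadjusted p = 0.0475, adjusted p = 0.381). Neither passed after adjustment. The group means of the other 5 SMAD2 sets differed among themselves: 2 dimmer sets ran as the main set did (0.08 and -0.42, and 0.10 and -0.27, in undifferentiated cells and embryoid bodies), while the 3 brighter ones were at -0.07 and -0.15, -0.07 and 0, and 0.10 and 0.08. The set at 0.10 and -0.27 lay below the array median on every embryoid body array, at 47.9 to 70.8 signal units. Its value there had an SE of 0.31, so its direction in embryoid bodies is uncertain. Groups of 2 arrays allow no search for outlying samples.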

How the results depend on the processing

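The stage values of the members did not change sign under any alternative in which they were tested, and GDF3 at 0 mM was at 0 under median centring. NODAL, LEFTY1, GDF3, ACVR2A and the SMAD genes were tested in all 20 alternatives, CER1 in 19 and TGFB1 in 17. With the filter at the 75th percentile CER1 and TGFB1 fell out, which left 5 members called at 0 mM and 7 at 20 mM, and without sets ending in _x_at or _s_at TGFB1 fell out, which left 6 and 8. The ethanol values of the members lie near 0 and changed sign easily. Under median centring they became, in undifferentiated cells, -0.050 for SMAD2 and -0.033 for SMAD3, and in embryoid bodies -0.15 for GDF3 and for SMAD3, -0.25 for SMAD7 and -0.050 for ACVR2A, with 1 member called; the difference between the stages became -0.083 for CER1, which was -0.064 with cyclic loess, and -0.12 for SMAD3. The mean of all probe sets gave, in undifferentiated cells, 0.28 for NODAL, -0.18 for SMAD3 and 0.042 for ACVR2A, and -0.37 for the NODAL difference. The probe set with the highest SD gave -1.26 for SMAD3 and 0.12 for ACVR2A in undifferentiated cells and -0.65 for SMAD3 in embryoid bodies. Leaving out 1 array at a time, the ethanol values in undifferentiated cells ran from -0.66 to 0.30 for LEFTY1, from -0.083 to 0.38 for SMAD7 and from -0.12 to 0.050 for ACVR2A. In embryoid bodies they ran from -0.20 to 0.066 for NODAL and from -0.050 to 0.083 for SMAD7. The difference between the stages ran from -0.033 to 0.33 for NODAL, -0.30 to 0.66 for LEFTY1, -0.22 to 0.32 for CER1, -0.050 to 0.083 for SMAD3 and -0.37 to 0.10 for SMAD7. The cause of these changes was not tested.

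Over all genes, ethanol calls in embryoid bodies, 10 as reported, were 477 with the filter at the 75th percentile, 82 with a pseudocount of 32, 1 with the mean of sets, 3880 with median centring, 0 without sets whose names end in _x_at or _s_at, 2 with no filter, 0 with only the arrays compared, 1 with the set of highest SD, 62 with quantile normalisation, 959 with a trended and robust variance, and 0 to 4 with 1 array left out. In undifferentiated cells, 1 as reported, they were 2 with cyclic loess, 2 with median centring, 2 with no filter, 3 without those sets, 4 with the set of highest SD, 0 with the stricter filter, the pseudocount, the trended variance or only the arrays compared, and 0 to 34 with 1 array left out. Calls of the difference, 0 as reported, were 13 with the stricter filter, 31 with the trended variance and 0 to 10 with 1 array left out. With the replicate block, 0 genes were called for ethanol in either stage, and 7210 and 7785 between the stages, with 8 and 9 members. The deviations of equally lettered arrays correlated between -0.03 and 0.05 over all genes, so no shift shared by a letter was seen. Whether the letters A and B mark a shared culture or batch cannot be told from this. The block changed no member's call but that of GDF3. A lone array left in a group is assumed to vary like the other groups. Signals near the array median, as for CER1 and TGFB1, limit how small a change can be seen.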
